A study of Mus musculus with 10 samples.

Results

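Nppb, the gene for brain natriuretic peptide, was examined together with 9 genes of the Hippo pathway and its YAP-TEAD output in mouse embryonic stem cell (ESC) lines. The set therefore held 10 of the 20206 genes measured. Its members were chosen by symbol, and where several rows carried a symbol the row with the highest mean was kept. Nppb was selected on its diet difference in these same lines, and the other 9 genes were proposed with results of these data known. The difference between diets is therefore given for all 10 genes as a description, with no test. The question put to the data was whether Nppb followed the YAP-TEAD targets from line to line.

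RNA sequencing was carried out on 10 ESC lines derived from C57Bl/6 blastocysts. C57Bl/6 mothers, 7 to 9 weeks old and mated with males of the same strain, were fed a low protein diet (LPD, 9% casein) or an isocaloric normal protein diet (NPD, 18% casein) until embryonic day 3.5. The 5 LPD lines were numbered 1, 4, 6, 20 and 40, and the 5 NPD lines 8, 15, 21, 36 and 51. All were labelled male, and RNA was taken, per the study, from cells grown in medium without fibroblasts. Values are the deposited normalised read values per gene, which were scaled so that lines can be compared.

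In the Hippo pathway a chain of kinases, ending in LATS1 and LATS2, phosphorylates the co-activator YAP and keeps it in the cytoplasm. Unphosphorylated YAP enters the nucleus and binds TEAD transcription factors, which carry it to target genes such as Cyr61, Ctgf, Ankrd1 and Amotl2. Several targets, among them Lats2 and Amotl2, encode proteins that restrain YAP, so that the pathway feeds back on itself. Brain natriuretic peptide is a hormone best known from the stretched or stressed heart, and the pathway is known in the early embryo for separating trophectoderm from inner cell mass.

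Some libraries stood apart from the rest. In NPD line 15 the Y-linked gene Ddx3y, an RNA helicase, had a value of 7.70, and in LPD line 4 it had a value of 174. The other 8 lines lay between 1109.7 and 1493. NPD line 15 was also 0.49 above the median line on the log2 scale in the middle value of 334 X-linked genes, so that this line went against its label of male and LPD line 4 was unlike the other lines of its diet. Differences of the members, their relations with Nppb and the calls of listed genes between diets are given with and without this pair of lines. The depth, read from the step between low values, was equivalent to 5855693 reads in LPD line 4, 11237606 in LPD line 40 and 12317063 in LPD line 6, and to between 20331538 and 24245406 in the other 7 lines. Among the 7 chromosomes that carry members, chromosome 3, with Cyr61, had a median 0.18 higher on the log2 scale in NPD line 8, the largest deviation of any line on these chromosomes.

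Nppb (chromosome 4, 147985788 to 147987205, GRCm38, plus strand) had normalised values of 321, 559, 598, 514 and 137 in LPD lines 1, 4, 6, 20 and 40. In NPD lines 8, 15, 21, 36 and 51 it had values of 74.2, 56.9, 79.1, 46.9 and 90.1. All LPD values exceeded all NPD values, and LPD line 40 was the lowest of its diet, at 1.52 times the highest NPD value. LPD lines averaged 426 ± 193 (SD, n = 5) and NPD lines 69.5 ± 17.4 (SD, n = 5). On the log2(value + 1) scale the difference was 2.46 ± 0.43 (SE), a fold of 5.51, and it was 2.26 without LPD line 4 and NPD line 15. Since these are bulk samples, more cells with Nppb RNA and more Nppb RNA per cell cannot be told apart. Among genes averaging at least 10, 75 of 14354 (0.523%) had every LPD line above every NPD line. Nppb and Amotl2 were the 2 members of 10 with this pattern, on the contrast by which Nppb was selected.

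Cyr61 (Ccn1, chromosome 3, 145646976 to 145649981, minus strand) encodes a secreted matricellular protein and is a standard readout of YAP. It had values of 10567, 10389.9, 5289.9, 5812 and 1330.0 in LPD lines 1, 4, 6, 20 and 40, and of 1705, 1238, 991, 1345 and 1482 in NPD lines 8, 15, 21, 36 and 51. LPD lines 1, 4, 6 and 20 were all above the NPD lines, while LPD line 40 lay within the NPD range. The mean was 6678 ± 3879 (SD, n = 5) in LPD against 1352 ± 267 (SD, n = 5) in NPD lines, and the log2 difference was 2.01 ± 0.56 (SE). Without LPD line 40 it was 2.52, and without LPD line 4 and NPD line 15 it was 1.75.

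Ctgf (Ccn2, chromosome 10, 24595442 to 24598683, plus strand), the connective tissue growth factor, belongs to the same protein family. Its values were 3635, 3503, 3045, 2673 and 702 in LPD lines 1, 4, 6, 20 and 40, and 749, 701, 612, 862 and 968 in NPD lines 8, 15, 21, 36 and 51. Again 4 LPD lines were above all NPD lines, and LPD line 40 was level with the lower NPD lines. The log2 difference was 1.62 ± 0.46 (SE), 2.05 without LPD line 40 and 1.44 without LPD line 4 and NPD line 15.

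Ankrd1 (chromosome 19, 36111961 to 36120099, minus strand) encodes an ankyrin repeat protein of the nucleus and the sarcomere and is a YAP target in many cell types. It had low values throughout, at 403, 267, 185, 149 and 75.9 in LPD lines 1, 4, 6, 20 and 40 and at 23.4, 18.97, 79.9, 57.8 and 58.0 in NPD lines 8, 15, 21, 36 and 51. The same 4 LPD lines exceeded the NPD lines, and LPD line 40 was just under NPD line 21. The log2 difference was 2.14 ± 0.56 (SE), and 1.74 without LPD line 4 and NPD line 15. At the lowest value, about 25.0 reads stood behind the estimate.

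Amotl2 (chromosome 9, 102716672 to 102733418, plus strand) encodes an angiomotin-like scaffold that binds YAP, holds it outside the nucleus and is itself a target. It had values of 4268, 3905, 3019, 3606 and 1626 in LPD lines 1, 4, 6, 20 and 40, and of 1600, 1475, 1123, 1418 and 1441 in NPD lines 8, 15, 21, 36 and 51. The diets did not overlap, but LPD line 40 exceeded the highest NPD line by a factor of 1.02 only. The log2 difference was 1.15 ± 0.26 (SE), and 1.09 without LPD line 4 and NPD line 15. Its relative Amotl1 (chromosome 9, 14541966 to 14645056, minus strand) was at 736, 793, 1074, 789 and 683 in LPD lines 1, 4, 6, 20 and 40 and at 1259.6, 743, 657, 693 and 601 in NPD lines 8, 15, 21, 36 and 51. Here the highest line was NPD line 8, the diets overlapped, and the log2 difference of 0.08 ± 0.22 (SE) was smaller than its error, and was 0.08 without LPD line 4 and NPD line 15. It ranged from -0.02 without LPD line 6 to 0.26 without NPD line 8.

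Lats2 (chromosome 14, 57689662 to 57758388, minus strand), the kinase that phosphorylates YAP and a target of it, had values of 223, 337, 309, 352 and 122 in LPD lines 1, 4, 6, 20 and 40. In NPD lines 8, 15, 21, 36 and 51 the values were 241, 147, 209, 137 and 215. LPD lines 4, 6 and 20 were above every NPD line, but LPD line 40 was the lowest of all 10 lines, so the diets overlapped widely. The log2 difference was 0.44 ± 0.32 (SE), 0.70 without LPD line 40 and 0.25 without LPD line 4 and NPD line 15.

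Ajuba (chromosome 14, 54567472 to 54577558, minus strand), a LIM protein that binds LATS kinases and limits their action on YAP, ranged from 2999 to 7609.8 in LPD and from 2868 to 4001 in NPD lines. Its highest values, 7609.8 and 5129.5, were in LPD lines 20 and 6, and the other 3 LPD lines lay within the NPD range. The log2 difference was 0.38 ± 0.25 (SE), 0.38 without LPD line 4 and NPD line 15 and 0.17 without LPD line 20. Yap1 itself (chromosome 9, 7931999 to 8004596, minus strand) was the steadiest member, with 3241 to 4466 in LPD and 3732 to 4448 in NPD lines. Its log2 difference was -0.04 ± 0.09 (SE), and it was the 1 member of 10 with a lower mean log2 value in LPD lines. Tead4 (chromosome 6, 128224288 to 128300823, minus strand), the TEAD factor tied to trophectoderm, ranged from 429 to 790.0 in LPD and from 394 to 565 in NPD lines, and its log2 difference was 0.17 ± 0.18 (SE). The difference without LPD line 4 and NPD line 15 was -0.06 for Yap1 and 0.22 for Tead4. Yap1 turned to 0.03 without LPD line 1 and was -0.09 without LPD line 6, and Tead4 was at 0.02 without LPD line 6.

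The members thus fell into those with a log2 difference above 1 (Nppb, Ankrd1, Cyr61, Ctgf and Amotl2, in descending order) and the other 5, whose differences were at most 0.44. The order within the former was not tested, since these genes were measured in the same lines and vary together. The median difference of the 10 members was 0.80, beside 0.00 over all 14354 genes tested, on the contrast that chose them. LPD line 40 was the lowest LPD line for 7 of the 10 members, several of which vary together. The share over all genes was not computed.

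**Figure D1:**
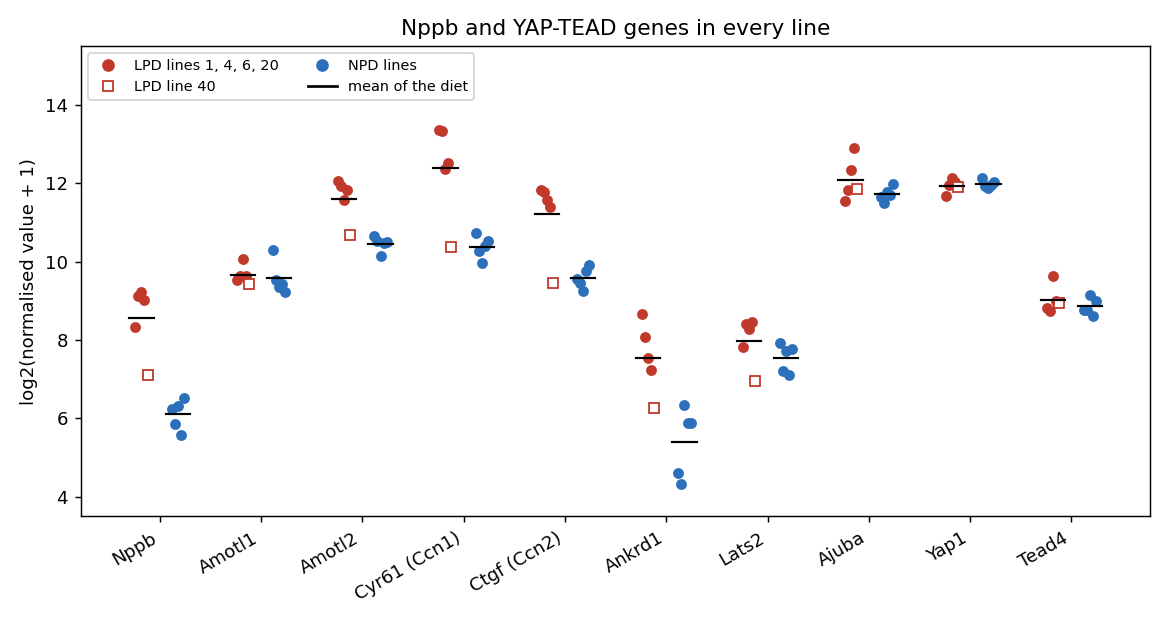
Normalised values of the 10 genes on the log2(value + 1) scale, with a point for every line, LPD in red and NPD in blue, and a bar at the mean of each diet (n = 5 lines). LPD line 40, drawn as an open square, sits at or near the NPD points for Amotl2, Cyr61, Ctgf and Ankrd1, and lies between the diets for Nppb.

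Levels were compared between genes per kilobase of the longest annotated transcript. On that scale of value per kilobase, and over the lines of both diets, Cyr61 had the highest mean of the members, 1989 per kilobase, followed by Ajuba at 1175, Yap1 at 754.5 and Ctgf at 701 per kilobase. Nppb had rank 6 in this order, at 317 per kilobase, and Tead4, Amotl1, Ankrd1 and Lats2 were lowest, at 163, 89.6, 65.2 and 44.2 per kilobase. The order of Yap1 and Ctgf was not beyond the spread of Ctgf between lines. In NPD lines alone Ajuba was highest at 993 per kilobase, above Yap1 at 764 and Cyr61 at 669.7 per kilobase. There, Nppb at 88.9 and Amotl1 at 88.3 per kilobase were level, whereas in LPD lines Nppb was at 545 and Amotl1 at 91.0 per kilobase.

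Nppb was next related to the other 9 members across lines. To keep the diet difference out of the relation, the mean of its diet was subtracted from every log2 value, and the 10 deviations of Nppb were correlated with those of each member. The 2-sided exact permutation test used all 14400 reorderings of lines within diets, and the same relation was computed for all 14353 other genes. Lats2 followed Nppb most closely. In LPD lines 1, 4, 6, 20 and 40 the deviations of Nppb were -0.23, 0.57, 0.66, 0.45 and -1.45 and those of Lats2 were -0.17, 0.42, 0.30, 0.48 and -1.03. In NPD lines 8, 15, 21, 36 and 51 the deviations of Nppb were 0.13, -0.25, 0.22, -0.52 and 0.41 and those of Lats2 were 0.38, -0.33, 0.17, -0.43 and 0.22. In all 10 lines both genes were on the same side of their diet mean.

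The relation of Nppb with Lats2 had r = 0.958 (exact permutation p = 0.00389) and rho = 0.855 (exact permutation p = 0.00875). Lats2 was the gene with the highest r among the 10454 genes that averaged at least 100, although no relation passed adjustment over all genes (adjusted p = 0.981 from the exact permutation test). It was the 1 relation of 9 with an exact p under 0.05, beside 270 of 14353 genes (1.88%) with such a p and a positive r. Without LPD line 4 and NPD line 15, r was 0.959 (exact permutation p = 0.0191). Without LPD line 40 and NPD line 36, the lines farthest from the median of Nppb, r was 0.831 over the remaining 8 lines and the exact permutation p was 0.0590, so that the threshold was no longer passed. It was passed with each of the 10 lines left out singly, at r = 0.884 without LPD line 40 (exact permutation p = 0.0194) and 0.954 without NPD line 36 (exact permutation p = 0.0118).

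The classical targets had lower r with Nppb. Ctgf had r = 0.774 and rho = 0.576 (exact permutation p = 0.135 and 0.152), Cyr61 had r = 0.688 and rho = 0.333 (exact permutation p = 0.147 and 0.410), and Amotl2 had r = 0.642 and rho = 0.261 (exact permutation p = 0.178 and 0.566). Ankrd1 had r = 0.427 and rho = 0.345 (exact permutation p = 0.263 and 0.378). These values rested on LPD line 40, in which Nppb and all of these targets were low. Without that line r was -0.19 for Ctgf, -0.31 for Cyr61, -0.47 for Amotl2 and -0.12 for Ankrd1. Without LPD line 40 and NPD line 36 the r of Nppb was -0.03 with Ctgf, -0.36 with Cyr61, -0.54 with Amotl2 and 0.03 with Ankrd1. The contrast between these genes is visible in LPD line 1, where Cyr61, Ctgf, Ankrd1 and Amotl2 had their highest values of all 10 lines while Nppb and Lats2 were below the mean of their diet. Without LPD line 4 and NPD line 15, r was 0.748 for Ctgf, 0.641 for Cyr61, 0.621 for Amotl2 and 0.357 for Ankrd1.

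Among the pathway components, r with Nppb was 0.478 for Ajuba, 0.444 for Yap1, 0.414 for Tead4 and 0.326 for Amotl1, with rho of 0.442, 0.588, 0.382 and 0.467. Their exact permutation p lay between 0.264 for Amotl1 and 0.368 for Ajuba on r and between 0.0970 for Yap1 and 0.323 for Tead4 on rho. Of these 4 genes 0 passed the threshold. All 9 values of r were positive, with a median of 0.478 beside 0.00734 over all genes. Without LPD line 40 and NPD line 36 they were 0.616 for Ajuba, 0.745 for Yap1, 0.533 for Tead4 and 0.121 for Amotl1. Without LPD line 4 and NPD line 15 they were 0.606 for Ajuba, 0.441 for Yap1, 0.617 for Tead4 and 0.353 for Amotl1. Leaving out LPD line 6 alone gave 0.183 for Tead4 and 0.175 for Amotl1, and leaving out LPD line 4 alone gave 0.626 for Tead4.

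**Figure D2:**
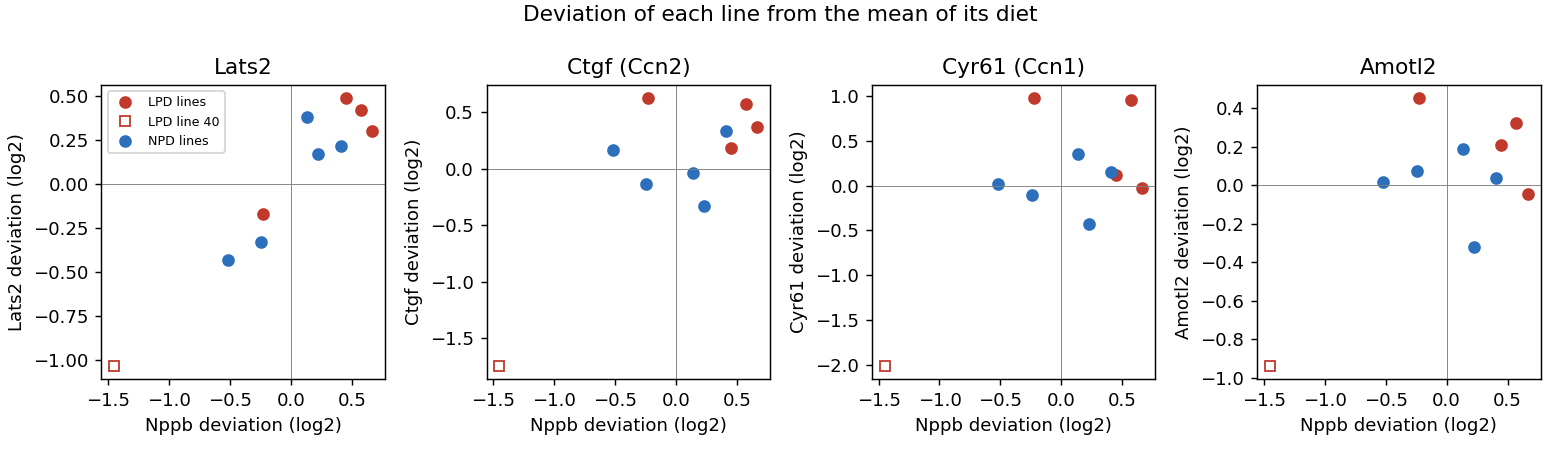
Deviation of each line from the mean of its diet on the log2 scale, for Nppb on the horizontal axis and for Lats2, Ctgf, Cyr61 or Amotl2 on the vertical axis, with a point for every line (LPD red, NPD blue). Lats2 runs along a line with Nppb (r = 0.958), while for the other 3 genes the slope comes from LPD line 40, the open square at the lower left.

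Genes whose line-to-line pattern was most like that of Nppb were named by the size of r among genes with a mean of at least 100. After Lats2 they were Rbm4, an RNA-binding splicing regulator (r = 0.942), Chuk, a kinase of the NF-kB pathway (0.915), Krit1, a vascular junction protein (0.913), and Zbtb21, a zinc finger protein (0.909). The lowest r were those of Aldh1l1, a folate enzyme (-0.898), Tmem143, a membrane protein (-0.898), and Helq, a DNA helicase (-0.894). Zbtb21 had values of 898, 1031, 1165, 1089 and 687 in LPD lines 1, 4, 6, 20 and 40 and of 756, 571, 772, 640.0 and 689 in NPD lines 8, 15, 21, 36 and 51. In all 5 of the genes with the highest r, LPD line 40 had the lowest value of the LPD lines. This is tied to the choice by r, since Nppb deviated most in that line (-1.45). Among the same 10454 genes Ctgf ranked 93, Cyr61 297, Amotl2 452 and Ankrd1 1635 by r with Nppb.

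Relations among the other members were examined in the same way. Of the 36 pairs among the other 9 members, 5 had an exact permutation p under 0.05 and a positive r, and no pair passed adjustment over all genes. The closest pair was Amotl2 with Cyr61, with r = 0.974 (exact permutation p = 0.000556) and rho = 0.879 (exact permutation p = 0.00257). Without LPD lines 40 and 1, the farthest from the median of Amotl2, r was 0.828 (exact permutation p = 0.0222), and without LPD line 4 and NPD line 15 it was 0.987. With Amotl2 as the reference, 5.44% of all genes had a positive r with a p under 0.05.

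Cyr61 with Ctgf had r = 0.9503 (exact permutation p = 0.00431) and rho = 0.806 (exact permutation p = 0.00694), where 4.87% of genes passed with Cyr61. Amotl2 with Ctgf had r = 0.926 and rho = 0.685 (exact permutation p = 0.0151 and 0.0579). Leaving out LPD lines 40 and 1 brought these to 0.651 and 0.470 (exact permutation p = 0.0861 and 0.289) over 8 lines. Without LPD line 40 alone Cyr61 with Ctgf still passed (r = 0.702, exact permutation p = 0.0438) and Amotl2 with Ctgf did not (r = 0.553, exact permutation p = 0.156), so that the latter rested on that line. Amotl2 with Ctgf also failed the threshold without NPD line 21 alone (exact permutation p = 0.0601), although r was still 0.930. The weaker pairs were Ctgf with Ankrd1, at r = 0.632 and rho = 0.600 (exact permutation p = 0.0499 and 0.0581), and Amotl1 with Yap1, at r = 0.612 and rho = 0.552 (exact permutation p = 0.0397 and 0.109). Ctgf with Ankrd1 passed in 4 of 16 alternatives, and in 1 of the 10 that left out a single line. Amotl1 with Yap1 passed in 8 of 16 alternatives, and in 4 of the 10 that left out a single line. With Ctgf 2.76% and with Amotl1 6.39% of all genes passed in the same direction. Without LPD line 4 and NPD line 15 the r of Ctgf with Ankrd1 was 0.656 and that of Amotl1 with Yap1 was 0.614, close to those of all lines, but with fewer lines neither passed (exact permutation p = 0.189 and 0.0868), and 3 of the 5 pairs did. For Ctgf with Ankrd1, r was 0.938 without LPD line 40 and NPD line 21, the lines farthest from the median of Ctgf, but 0.359 without LPD line 40 alone. Amotl1 with Yap1 rested on NPD line 8 and LPD line 6, without which r was 0.117. Yap1, Tead4 and Ajuba had r between -0.27 and 0.12 with Amotl2, Cyr61 and Ctgf.

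**Figure D3:**
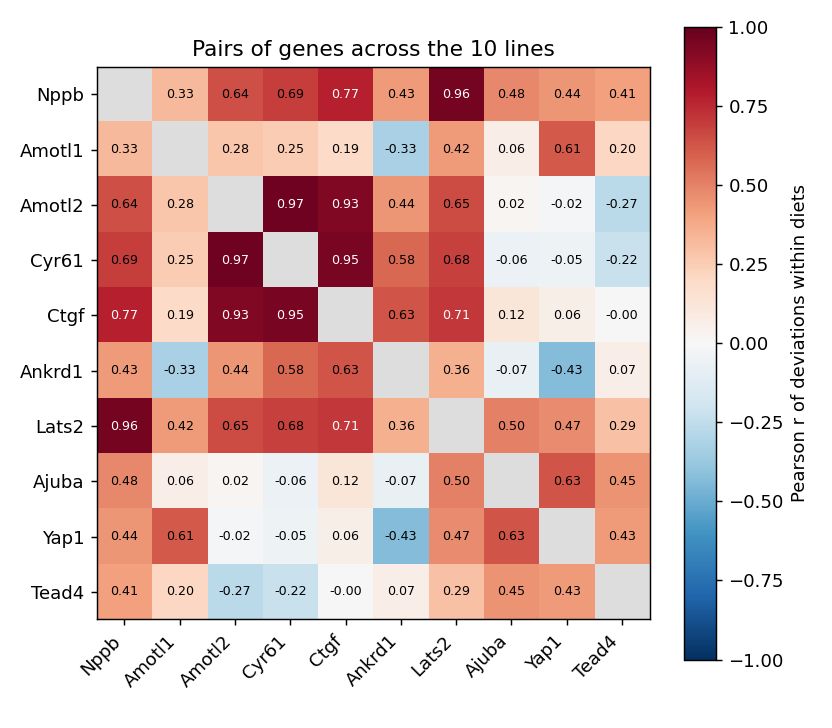
Pearson r between the deviations of each pair of genes from their diet means over the 10 lines, with red for positive and blue for negative r. Amotl2, Cyr61 and Ctgf form a block with r from 0.926 to 0.974, and the cell of Nppb with Lats2 holds 0.958.

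Promoters were compared because several of these genes are known targets of TEAD factors, whose core site is GGAATG. RefSeq promoter sequences (GRCm38.p6) were matched for 8 of the 10 members (Nppb, Amotl1, Amotl2, Cyr61, Ankrd1, Lats2, Ajuba and Yap1), and the 250 bases before the annotated start were searched on both strands. GGAATG, or CATTCC on the other strand, was found in 6 of the 8 (all but Amotl1 and Lats2), and in 12.6% of 32851 promoters of the same length. TGANTCA, the site of AP-1 factors that often sits beside TEAD sites, was in none of the 8 and in 6.75% of all promoters. Lats2 had a second entry (chr14:57734419-57734668, minus strand), which also held neither motif. In 8 of the 9 entries the last bases, after the start, were found in a transcript of the gene. A match describes letters and no binding was measured. Sequences run 5′ to 3′ along the gene with the motif in capitals, and are given for 4 of the members with the largest differences between diets and for Lats2, the gene most like Nppb, which held no match in this window. Their positions are chr4:147985650-147985899 (plus strand) for Nppb, chr9:102717554-102717803 (plus strand) for Amotl2, chr3:145649986-145650235 (minus strand) for Cyr61, chr19:36119845-36120094 (minus strand) for Ankrd1 and chr14:57746124-57746373 (minus strand) for Lats2.
Nppb: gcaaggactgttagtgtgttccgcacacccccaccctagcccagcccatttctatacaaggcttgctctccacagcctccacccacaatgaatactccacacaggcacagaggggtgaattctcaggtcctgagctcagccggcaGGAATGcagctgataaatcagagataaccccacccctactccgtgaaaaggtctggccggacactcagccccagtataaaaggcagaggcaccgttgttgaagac
Amotl2: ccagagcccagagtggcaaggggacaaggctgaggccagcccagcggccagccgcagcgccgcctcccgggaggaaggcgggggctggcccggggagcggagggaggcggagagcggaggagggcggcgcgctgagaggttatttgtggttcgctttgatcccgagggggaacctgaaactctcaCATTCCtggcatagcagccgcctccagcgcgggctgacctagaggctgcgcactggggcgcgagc
Cyr61: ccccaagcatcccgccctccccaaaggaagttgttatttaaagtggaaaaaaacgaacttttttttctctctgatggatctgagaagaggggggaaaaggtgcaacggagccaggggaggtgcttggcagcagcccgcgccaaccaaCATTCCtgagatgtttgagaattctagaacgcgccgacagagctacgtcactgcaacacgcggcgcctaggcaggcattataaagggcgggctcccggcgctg
Ankrd1: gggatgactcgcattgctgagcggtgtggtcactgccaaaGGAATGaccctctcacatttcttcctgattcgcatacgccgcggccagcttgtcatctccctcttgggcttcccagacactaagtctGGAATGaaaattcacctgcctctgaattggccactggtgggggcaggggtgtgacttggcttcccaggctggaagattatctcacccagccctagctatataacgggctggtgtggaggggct
Lats2: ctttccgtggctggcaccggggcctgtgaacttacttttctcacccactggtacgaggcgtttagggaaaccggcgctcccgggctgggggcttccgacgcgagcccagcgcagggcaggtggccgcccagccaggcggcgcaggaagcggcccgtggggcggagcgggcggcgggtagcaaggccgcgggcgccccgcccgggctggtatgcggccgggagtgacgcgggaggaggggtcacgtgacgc

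Along the gene, the motif read GGAATG in Nppb, 105 to 100 bases before the RefSeq start. In Cyr61 it read CATTCC along the gene at nearly the same distance, 103 to 98 bases before the start. Amotl2 held it 65 to 60 bases before its start. Ankrd1 held 2 copies, 210 to 205 and 123 to 118 bases before its start, and Ajuba also held 2. The RefSeq starts differ from the ends of the GENCODE genes given above, except for Yap1, where they coincide. GENCODE places the start of Nppb at 147985788, inside its window, and the windows of Amotl2, Ankrd1, Lats2 and Amotl1 lie wholly inside the GENCODE genes, which for Lats2 begins at 57758388. The matches in Nppb, Amotl2 and Ankrd1 therefore lie after the GENCODE start, and the absence of a match in Lats2 and Amotl1 holds for these windows and not for the bases before that start.

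Other genes of the pathway were described from lists set by role, using the limma fit over all 14354 genes. The lists were chosen with earlier results of these data known, so their counts are a description. No gene of any kind reached an adjusted p under 0.1 (0 of 14354, 0%, limma with Benjamini-Hochberg). Before adjustment, limma gave a p under 0.05 to 408 genes (2.84%) with higher values in LPD lines and to 313 (2.18%) with lower values. This balance depended on the scaling, with 295 higher and 439 lower after rescaling lines to the same total and 387 and 381 after quantile normalisation. It also turned without LPD line 6 (369 higher and 405 lower) and without a filter on low values (472 and 549). Without LPD line 40 the number at an adjusted p under 0.1 was 40, of which 39 were higher in LPD lines. Of 21 other Hippo regulators tested, 0 were higher and 1 was lower at that unadjusted p. This was Taok2, a kinase at the head of the cascade, with 1111, 1139, 1399, 1190.4 and 1263 in LPD lines 1, 4, 6, 20 and 40 and 1479, 1588, 1449, 1475 and 1552 in NPD lines 8, 15, 21, 36 and 51. Every LPD line was below every NPD line, a pattern seen in 0.495% of all genes, and the log2 difference was -0.31 ± 0.06 (SE, adjusted p = 0.551), or -0.27 without LPD line 4 and NPD line 15 (unadjusted p = 0.0206). The most abundant regulators were Map4k4, an upstream kinase, for which LPD lines averaged 4745 ± 1048 (SD, n = 5) and NPD lines 5174 ± 749.9 (SD, n = 5), and Nf2, the tumour suppressor merlin, at 2851 ± 180 (SD, n = 5) and 3036 ± 257 (SD, n = 5).

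Among 6 TEAD factors and co-factors tested, 1 was higher in LPD lines at an unadjusted p under 0.05, beside 2.84% of all genes. Wwtr1, which encodes TAZ, the partner of YAP, was at 953, 931, 901, 972 and 895 in LPD lines 1, 4, 6, 20 and 40 and at 887, 687, 766, 677 and 866 in NPD lines 8, 15, 21, 36 and 51. Its diets did not overlap, though the lowest LPD and highest NPD lines were close, and the log2 difference was 0.27 ± 0.08 (SE, adjusted p = 0.860). Wwtr1 no longer passed without LPD line 4 and NPD line 15 (0.23, unadjusted p = 0.0699). Tead1 and Tead2, the most abundant TEAD factors, had log2 differences of 0.00 ± 0.13 (SE) and -0.09 ± 0.18 (SE).

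Of 16 other YAP-TEAD targets tested, 3 were higher and 0 were lower at an unadjusted p under 0.05, beside 2.84% and 2.18% of all genes. The list's median log2 difference was 0.08. F3, the coagulation receptor tissue factor, was at 310.2, 266, 728, 312 and 299.8 in LPD lines 1, 4, 6, 20 and 40 and at 269.5, 175, 287, 187 and 192 in NPD lines 8, 15, 21, 36 and 51. LPD line 6 was far above the rest, 4 LPD lines were above every NPD line and LPD line 4 was within the NPD range, with a log2 difference of 0.70 ± 0.30 (SE, adjusted p = 0.860) that was 0.44 without LPD line 6. Crim1, a transmembrane regulator of BMP ligands, and Gadd45a, a stress-inducible growth arrest gene, had log2 differences of 0.49 ± 0.24 (SE, adjusted p = 0.982) and 0.21 ± 0.09 (SE, adjusted p = 0.994). Neither passed without LPD line 4 and NPD line 15 (unadjusted p = 0.154 for Crim1 and 0.155 for Gadd45a), where F3 did (0.73, unadjusted p = 0.0268). The threshold was passed in 10 of 19 alternatives by Crim1 and in 3 of 19 by Gadd45a, whose p with all lines was 0.0499. Ptpn14, a phosphatase that binds YAP, had 0.00 ± 0.20 (SE).

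Actin genes driven by SRF and MRTF, a route that shares targets with YAP, were the list with the most genes past the unadjusted threshold. Of 12 tested, 4 were higher and 0 lower, beside 2.84% and 2.18% of all genes, and the median log2 difference was 0.57. Srf, the transcription factor itself, had values of 2121, 2314, 2107, 2347 and 1136 in LPD lines 1, 4, 6, 20 and 40 and of 689, 933, 1118, 976 and 1276 in NPD lines 8, 15, 21, 36 and 51. As with Cyr61, Ctgf and Ankrd1, 4 LPD lines lay above the NPD lines and LPD line 40 lay among them. The log2 difference of Srf was 0.99 ± 0.25 (SE, adjusted p = 0.341), and Srf was the 1 listed gene with an adjusted p under 0.1 when LPD line 40 was left out. Zyx, the focal adhesion protein zyxin, Cnn2, an actin-binding calponin, and Actg1, gamma-actin, had log2 differences of 1.02 ± 0.47, 0.72 ± 0.34 and 0.40 ± 0.20 (SE), with adjusted p of 0.879, 0.952 and 0.987. Zyx, Cnn2 and Actg1 no longer passed without LPD line 6, where their log2 differences were 0.78, 0.50 and 0.31 (unadjusted p = 0.0555, 0.0655 and 0.112), while Srf did (unadjusted p = 0.00119). Without LPD line 4 and NPD line 15, Srf, Cnn2 and Zyx passed (unadjusted p = 0.00327, 0.0240 and 0.0403) and Actg1, with a log2 difference of 0.44, did not (0.0531). Actb, beta-actin, the most abundant gene of the list, had 0.34 ± 0.17 (SE, adjusted p = 0.994). Over all lists, 8 of 60 genes were higher and 1 was lower at an unadjusted p under 0.05, beside 2.84% and 2.18% of all genes. No set test was run. Without LPD line 4 and NPD line 15 the count of higher genes was 5. It was 3 without LPD line 6, which was also flagged for fibroblast and trophectoderm markers, 3 without NPD line 15, 4 without LPD line 20 and 5 without NPD line 8.

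Of 8 listed genes of the natriuretic peptide system other than Nppb, 5 had a mean of at least 10 and 0 passed an unadjusted p of 0.05 in either direction. Nppa, the gene for atrial natriuretic peptide, starts 14934 bases from Nppb. It had values of 5.31, 20.2, 12.4, 5.32 and 9.47 in LPD lines 1, 4, 6, 20 and 40 and of 7.03, 8.35, 5.27, 4.38 and 3.38 in NPD lines 8, 15, 21, 36 and 51. These were low in every line and overlapped between diets, with 3 LPD lines above every NPD line and a log2 difference of 0.68 ± 0.39 (SE), which was not tested because the mean was under 10. The most abundant genes of the system were Mme, the peptidase neprilysin, and Pcsk6, a proprotein convertase, with log2 differences of 0.27 ± 0.26 (SE, adjusted p = 0.994) and 0.07 ± 0.13 (SE, adjusted p = 0.994). With single lines left out these differences ranged from 0.075 to 0.381 for Mme and from 0.019 to 0.145 for Pcsk6.

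Within diets, 3 of the 60 listed genes tested had an exact permutation p under 0.05 with Nppb, all with a positive r, beside 1.88% of all genes with a positive r and 3.27% in either direction. These were Tead1 (r = 0.704, exact permutation p = 0.0348), Asap1, an Arf regulator and YAP target (r = 0.781, exact permutation p = 0.0294), and Npr3, the clearance receptor of natriuretic peptides (r = 0.772, exact permutation p = 0.0190), the latter pair named after their values were seen. Srf had r = 0.752 with Nppb (exact permutation p = 0.0565).

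The genes around Nppb were examined next. Of 20 other measured genes whose start lies within 250 kilobases, 16 had a mean of at least 10, and their log2 differences between diets ran from -0.42 to 0.37, with Nppa, the closest gene, outside this count. At an unadjusted p under 0.05, 2 were lower in LPD lines, Fv1, a retrovirus restriction gene, and Clcn6, a lysosomal chloride transporter, at -0.42 ± 0.10 and -0.33 ± 0.11 (SE, adjusted p = 0.952 and 0.839), beside 2.18% of all genes. Fv1 was at 73.9, 80.5, 79.1, 82.4 and 63.2 in LPD lines 1, 4, 6, 20 and 40 and at 115, 106, 105, 84.8 and 99.5 in NPD lines 8, 15, 21, 36 and 51, so that its diets did not overlap, as in 0.495% of all genes, and ran opposite to those of Nppb. Within diets, however, it was the 1 neighbour of 16 that followed Nppb at an exact p under 0.05 (r = 0.780, exact permutation p = 0.0120), beside 3.27% of all genes in either direction. The nearest of those 16, 2510039O18Rik, an uncharacterised gene, and Plod1, which encodes a collagen-modifying enzyme, had log2 differences of 0.09 ± 0.13 and 0.26 ± 0.18 (SE). Leaving out single lines gave 0.026 to 0.152 for 2510039O18Rik and 0.124 to 0.344 for Plod1.

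Markers of the labelled cell type were high in all lines. Of 8 pluripotency markers 8 were detected, with summed values of 102068, 98563, 94345, 100034 and 123278 in LPD lines 1, 4, 6, 20 and 40 and of 88813, 107860, 121915, 91424 and 108302 in NPD lines 8, 15, 21, 36 and 51. Dppa5a was the most abundant, and the defining markers Nanog, Pou5f1 and Sox2 were at 5141 or more in every line. Of 8 heart muscle markers, examined because Nppb is a cardiac gene, 6 had a mean of at least 10, the most abundant was Myh7, and the sum was 114, 145, 208, 99.5 and 114 in LPD lines 1, 4, 6, 20 and 40 and 129, 106, 112, 146 and 156 in NPD lines 8, 15, 21, 36 and 51. Of its defining markers Tnnt2 was at 0 in LPD line 4, and Myh6 and Myh7 were low but above 0 in all lines. The diets overlapped in both sums.

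Markers of other cell types had uneven levels. Of 10 fibroblast markers 8 were detected, led by Col1a1, with sums of 478, 705, 3573, 812 and 506 in LPD lines 1, 4, 6, 20 and 40 and 2186, 5756, 512, 1174 and 596 in NPD lines 8, 15, 21, 36 and 51. All 8 primitive endoderm markers were detected, led by Cubn, with sums of 7008, 3863, 741, 2927 and 5267 and of 1552, 502, 3478, 7566 and 3790.0 in the same order of lines. Of 8 trophectoderm markers 7 were detected, led by Krt8, with sums of 1666, 1897, 9022, 1934 and 1871 and of 3025, 2983, 1546, 1741 and 1378. High sums stood in lines of both diets for fibroblast and endoderm markers and in LPD line 6 for trophectoderm markers. That sum came mainly from the keratins Krt8, Krt18 and Krt7 (4577, 3053 and 638), while the defining marker Cdx2 was at 29.2 in LPD line 6 and at 97.9 in LPD line 20, Elf5 was at 1.92 in LPD line 6, and Eomes was within the range of the other lines. None of the defining markers Col1a1, Col1a2, Col3a1, Gata4, Gata6, Sox17, Cdx2, Elf5 and Eomes was at 0 in any line, and Elf5 did not exceed 6.18. With the deviations of Nppb the sums had r of -0.41 for pluripotency, 0.190 for fibroblast, -0.35 for endoderm, 0.296 for trophectoderm and 0.392 for heart muscle markers, all with an exact permutation p of 0.213 or more. The part of these cell types in the results was not tested.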

How the data were processed

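RNA from 10 ESC lines, 5 LPD and 5 NPD, was sequenced. The authors trimmed reads with cutadapt, quantified GRCm38 (mm10) transcripts with Salmon and deposited a signal per gene, an estimated count normalised with DESeq2, and the labels also name sleuth 0.30.0. The value of 1 read was estimated from low values, which were whole multiples within a tolerance of 0.15 for 90.6% to 99.8% of values in genes with 1 transcript and for 67.1% to 72.9% over all genes. Since the values did not resolve into whole reads, models of counts were not applied. Of 20206 genes, 19891 were matched to GENCODE M21. On the log2(value + 1) scale, 14354 genes averaging 10 or more were tested between diets with limma 3.58.1 (R 4.3.3, eBayes with a mean-variance trend, 2-sided, Benjamini-Hochberg, thresholds 0.05 unadjusted and 0.1 adjusted). Printed standard errors come from the spread within each diet. Correlations of diet-centred values were tested by exact permutation of lines within diets in Python 3.11.15.

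The members and lists were chosen with earlier results of these data known. Lists were Hippo regulators, TEAD factors and co-factors, other YAP-TEAD targets, the natriuretic peptide system, SRF-MRTF actin targets and markers of pluripotent, fibroblast, primitive endoderm, trophectoderm and heart muscle cells. Named genes were the members, up to 5 genes per pathway list with the smallest unadjusted p under 0.05 and the 2 with the highest mean, genes starting within 250 kilobases of Nppb, the 5 highest and 3 lowest r with Nppb at a mean of at least 100, and the leading and defining markers. Asap1, Npr3, Krt7, Krt18 and the Y-linked Ddx3y fall outside this rule. Alternatives were other pseudocounts and filters, rescaling to the same total, quantile normalisation, limma without a trend, depth as a covariate, Spearman rho, subtraction of chromosome medians, each line left out in turn, and leaving out LPD line 4 with NPD line 15.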

Additional observations from a re-analysis of the deposited data

Results flagged for a closer look

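A line was flagged where its gap to the nearest line of its diet, divided by the range of that diet on the log2 scale, exceeded 0.71. Chance flags about 1 in 20 groups of lines, and 11 of 98 groups were flagged, 2 of them among the 20 groups of members. Among members, NPD line 8 was far above the other NPD lines for Amotl1 (1259.6, gap 0.713) and LPD line 40 was far below the other LPD lines for Ctgf (702, gap 0.813). LPD line 40 also stood below its diet for Srf (1136, gap 0.851) and Chuk (1006, gap 0.718), the latter named for its r with Nppb. LPD line 6 stood above its diet for F3 (728, gap 0.839), for the summed fibroblast markers (3573, gap 0.736) and for the summed trophectoderm markers (9022, gap 0.912). Ddx3y was far below its diet in LPD line 4 (174, gap 0.883) and in NPD line 15 (7.70, gap 0.959). The median deviation of chromosome 3 was high in NPD line 8 (0.18, gap 0.81), and that of chromosome X was high in NPD line 15 (0.49, gap 0.937).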

How the results depend on the processing

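Over 40 results and 672 alternatives, 582 were labelled the same, 67 weaker, 19 moved and 4 reversed. The same meant keeping the side of the threshold, moving within the spread between lines or, for counts, changing within a fixed ratio. Changes of counts from 408 to 295 and from 313 to 439 on rescaling fell among the 582. Among the 582, small untested differences between diets changed sign for Amotl1 (-0.02 without LPD line 6 and -0.01 without NPD line 51) and Yap1 (0.03 without LPD line 1). The 4 reversals were the r of Nppb with Amotl2, Cyr61, Ctgf and Ankrd1 without LPD line 40, at -0.47, -0.31, -0.19 and -0.12. Over the 10 runs that left out a single line these r ranged from -0.47 to 0.781, from -0.31 to 0.836, from -0.19 to 0.880 and from -0.12 to 0.569, and that with Lats2 from 0.884 to 0.981, with exact permutation p from 0.00451 to 0.0194. When single lines were left out, genes higher in LPD lines at an unadjusted p under 0.05 ranged from 322 to 529 and lower ones from 227 to 405, and those at an adjusted p under 0.1 in limma from 0 to 40. Without a filter on low values, 472 genes were higher and 549 were lower, and without LPD line 6 these numbers were 369 and 405. With each line left out, listed genes higher in LPD lines ranged from 3 to 10 and lower ones from 1 to 2, and 5 were higher without LPD line 4 and NPD line 15. Pairs without Nppb numbered 3 to 5 with each line left out, 6 with depth also removed, 4 with chromosome medians subtracted, 3 with Spearman rho and 3 without LPD line 4 and NPD line 15. The cause was not tested. Genes higher and lower in LPD lines numbered 408 and 313 as deposited (56.6% higher), 295 and 439 rescaled to the same total (40.2%), and 387 and 381 after quantile normalisation (50.4%). The balance of directions therefore depended on the scaling, besides the filter and LPD line 6. No paired analysis was possible because the diets share no line numbers. With 5 lines per diet, relations rest on few lines, and LPD line 40 alone carried several of them. Low values are the least precise in LPD line 4, with the lowest depth. Over all lines, the fewest reads behind a value were 25.0 for Ankrd1, in NPD line 15, and 64.7 for Nppb, in NPD line 36.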
